A study of Mus musculus with 15 samples.

Results

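The transcripts described here encode SR proteins, heterogeneous nuclear ribonucleoproteins (hnRNPs) and polypyrimidine tract-binding proteins (PTB). They were taken by symbol: Srsf or Hnrnp followed by a number or letters, together with Tra2a, Tra2b, Ptbp1, Ptbp2 and Ptbp3, with 1 Hnrnp symbol left out by the rule. This gave 35 of the 25239 genes in the table, of which 19 are hnRNPs, 11 are SR proteins, 2 are the SR-like Tra2 proteins and 3 are PTB proteins. The rule goes by symbol, and each of the 35 passed the filter on low counts that kept 17835 genes for testing.

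The RNA came from ST2 cells, a stromal line from mouse bone marrow. Cells were given medium alone or IL-17, an inflammatory cytokine, at 200 ng/mL, in each case for 3 h. After fixation in 1% formaldehyde, RNA was recovered from lysates by immunoprecipitation (RIP), either of Arid5a, which binds and stabilises inflammatory mRNAs, or with mouse IgG2b for background. The labels name no genetic change in any group. In medium there were 4 Arid5a and 4 IgG libraries. After IL-17 there were 4 Arid5a libraries but 3 IgG libraries, which keep their label numbers 2, 3 and 4. Libraries from unprecipitated RNA were not analysed here, so a value is a share of the RNA recovered on the beads, and a change in binding and a change in the amount of the transcript in the cell cannot be told apart. The labels do not say that the libraries of a group came from separate cultures, so p-values measure the spread between these libraries, which may be technical.

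SR proteins carry RNA recognition motifs and a domain rich in arginine and serine, bind exonic enhancers and help the spliceosome to choose splice sites. The hnRNPs coat nascent transcripts and often oppose SR proteins at exons, and many of them also act on export, stability and translation of mRNA. PTB proteins bind pyrimidine-rich tracts and mostly repress exons, Ptbp1 outside neurons and Ptbp2 in the nervous system. Many of these genes regulate their own mRNA through exons whose inclusion leads to decay. Srsf1 has been linked to the stability of chemokine mRNA downstream of the IL-17 receptor.

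Between 939139 and 5713913 counts were assigned per library, and the 35 transcripts took 0.927% to 1.34% of them. The 10 stromal markers examined (among them Col1a1, Vim and Pdgfrb) were detected in all 15 libraries at a summed 25177 to 37323 CPM (counts scaled to a common library size, with edgeR's TMM factors), while the marker sets of epithelial, endothelial, leukocyte and neuronal cells stayed between 5.26 and 149 CPM in sum. Of those other sets, up to 3 of 8 epithelial, 4 of 6 endothelial, 4 of 8 leukocyte and 0 of 7 neuronal markers were at 0 in a library. In bulk RNA, fewer cells of a type and less RNA per cell cannot be told apart.

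Libraries differed in ways that touch the comparisons below. The summed level of 1485 genes for receptors of smell and pheromones, which stromal cells are not known to use (receptor genes below), was 1672, 1801, 1405 and 4049 CPM in Arid5a IL-17 libraries 1 to 4, against 3225 to 4764 CPM in the Arid5a medium libraries, 1981 to 3078 CPM in IgG medium and 2364 to 3363 CPM in IgG IL-17. The gene length implied by the deposited counts and FPKM (fragment counts scaled by gene length and library size), as a difference from the median library, was -80.5, -105, -54.2 and -28.5 nt in Arid5a IL-17 libraries 1 to 4. It lay between -40.8 and 31.3 nt in the other libraries, and between 8.88 and 23.5 nt in Arid5a medium. Arid5a IL-17 libraries 1, 2 and 3 thus stood apart from Arid5a medium in both measures, and replicate 4 of that group resembled Arid5a medium in the first. A comparison of IL-17 with medium in the Arid5a RIP therefore also compares libraries that differ in these measures.

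The summed level of the 35 transcripts, scaled with TMM factors from all genes, also set these libraries apart. It was 14748, 15140 and 14531 CPM in Arid5a IL-17 libraries 1, 2 and 3 and 11740 CPM in library 4. In Arid5a medium it was 10504, 8151, 9708 and 10665 CPM. The IgG libraries lay between 11297 and 13869 CPM in medium and between 11075 and 12295 CPM with IL-17. With factors from the well-expressed genes the Arid5a IL-17 libraries stood at 12545, 12764, 12886 and 12364 CPM, so library 4 was close to the others and the group lay within the range of IgG medium (11198 to 13063 CPM). The split was not particular to the 35, since the stromal markers summed to 37224, 37323, 35307 and 27236 CPM in Arid5a IL-17 1 to 4 and to 25177 to 30853 CPM in Arid5a medium with TMM factors from all genes.

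**Figure D1:**
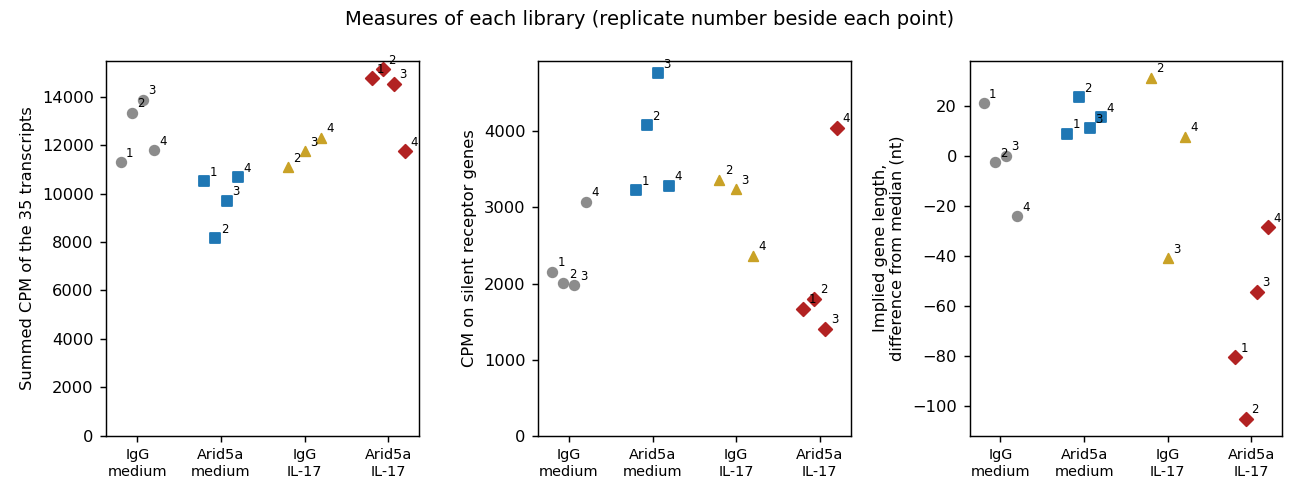
Each point is 1 library, numbered by replicate, in the 4 groups; the panels give the summed TMM-scaled CPM of the 35 transcripts, the summed CPM of the receptor genes, and the implied gene length as a difference from the median library in nt. Arid5a IL-17 libraries 1 to 3 are high in the first panel (14531 to 15140 CPM), low in the second (1405 to 1801 CPM) and low in the third (-105 to -54.2 nt).

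The genes lie on 17 chromosomes in the RefSeq annotation of GRCm38.p6 (mm10), in which each of the 35 was found by symbol. The 3 transcripts on which the IL-17 comparison turns are Hnrnpa1 (chr15:103239943-103246698), Hnrnpa2b1 (chr6:51460434-51470048) and Hnrnpa3 (chr2:75659105-75669407), the core A/B hnRNPs. A promoter entry in RefSeq was found for 32 of the 35. The 250 bases before the listed start were searched on both strands for CCAAT, a common promoter box bound by NF-Y. It was found in 17 of the 32 windows (53.1%) and in 34.5% of the 27025 windows of the same length over all genes. The 32 windows ran from 46.0% to 81.2% G or C and held 6 to 46 CG pairs, beside medians of 52.0% and 6 over all windows. Shares for this box and for the patterns below were not compared at like base composition. Hnrnpa1 has 4 matches, Hnrnpa2b1 1 and Hnrnpa3 2, and they are shown because these 3 transcripts rose together in the Arid5a RIP. Of the others that rose there (below), Hnrnpab has 3 matches, Hnrnph1 and Srsf3 have 1 each, and Hnrnpdl, Hnrnpf, Hnrnpu and Srsf1 have 0. Ptbp3, which also rose, has no promoter entry. Transcripts not called there also have from 0 matches (such as Hnrnpm) to 4 (Hnrnpc, Hnrnpl and Hnrnpr). A link between matches and the rise was not tested. Each line gives 29 bases, 5′ to 3′ on the gene's strand, with the match in capitals (ATTGG is the box on the opposite strand). The windows of these 3 genes lie wholly or partly inside the gene spans given above, since the listed start need not be the outermost one.
Hnrnpa1 match 1, chr15:103240194-103240222, plus strand: ctggctagttagCCAATcaatgcgattaa
Hnrnpa1 match 2, chr15:103240306-103240334, plus strand: cgtcttcacgggCCAATggtgggagggaa
Hnrnpa1 match 3, chr15:103240336-103240364, plus strand: aatttcaaatctCCAATaagactcaagta
Hnrnpa1 match 4, chr15:103240366-103240394, plus strand: gggcggagtctaCCAATaccgagagcgag
Hnrnpa2b1 match 1, chr6:51469929-51469957, minus strand: gcccttcccgccATTGGcggcggttaggg
Hnrnpa3 match 1, chr2:75659019-75659047, plus strand: tgggctctcgccATTGGtcgagctgccgc
Hnrnpa3 match 2, chr2:75659124-75659152, plus strand: cccgccggcggcCCAATccccgctctcca

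A pattern like that bound by C/EBP factors, which IL-17 is known to induce, was searched as TTNNGNAA on both strands. It was present in 8 of the 32 windows (25%) and in 37.0% of all windows, and the matches included 1 in Hnrnpa1, 3 in Hnrnpa2b1 and 0 in Hnrnpa3. A pattern like that of NF-kB, searched the same way, was present in 2 of the 32 windows (6.25%, Srsf4 and Srsf11) and in 4.02% of all. These matches describe letters in the windows and are not sites of binding.

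Levels were compared between transcripts only per length, as FPKM. Over the 15 libraries Hnrnpa2b1 was highest, with a median of 533 FPKM (range 377 to 809), followed by Hnrnpa1 at 475 FPKM (223 to 672) and Hnrnpk at 377 FPKM (293 to 881). Neighbours in this order overlapped in their ranges, so the order among the leading transcripts is not resolved beyond the spread of the libraries. The order also differed between groups. In IgG medium Hnrnpk, at 688 ± 207 FPKM (SD, n = 4), was above Hnrnpa2b1 at 472 ± 36.6 FPKM (n = 4), and in Arid5a IL-17 Hnrnpa3, at 434 ± 88.9 FPKM (n = 4), was above Hnrnpk at 346 ± 56.4 FPKM (n = 4). By the median over all libraries, next came Hnrnpf (median 332 FPKM), Srsf5 (308), Hnrnpab (288), Hnrnph1 (265), Hnrnpm (260), Hnrnpu (234) and Hnrnpa3 (200). Of the 10 highest transcripts 9 were thus hnRNPs, and Srsf5 was the only SR protein among them.

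The other SR proteins were lower. Their medians ran from 80.6 FPKM for Srsf3 over 75.5 for Srsf6, 71.5 for Srsf10, 71.1 for Srsf7, 69.7 for Srsf9 and 69.1 for Srsf2 to 45.1 for Srsf11, 42.4 for Srsf4 and 41.3 for Srsf1, which ranked 29th. Neighbours in this order overlapped in their ranges, while the ends, Srsf3 (71.7 to 114 FPKM) and Srsf1 (31.5 to 55.9), did not. Srsf12 was last of the 35 with 1.13 FPKM (0.16 to 3.07).

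The PTB transcripts stood in the order Ptbp1 (91.3 FPKM, 68.3 to 119), Ptbp3 (14.0, 8.43 to 20.4) and Ptbp2 (7.05, 0.68 to 12.1). Ptbp1 did not overlap the others in any library. Tra2b (97.1 FPKM, 76.5 to 138) lay above Tra2a (54.9, 37.5 to 68.5), and these ranges did not overlap either.

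**Figure D2:**
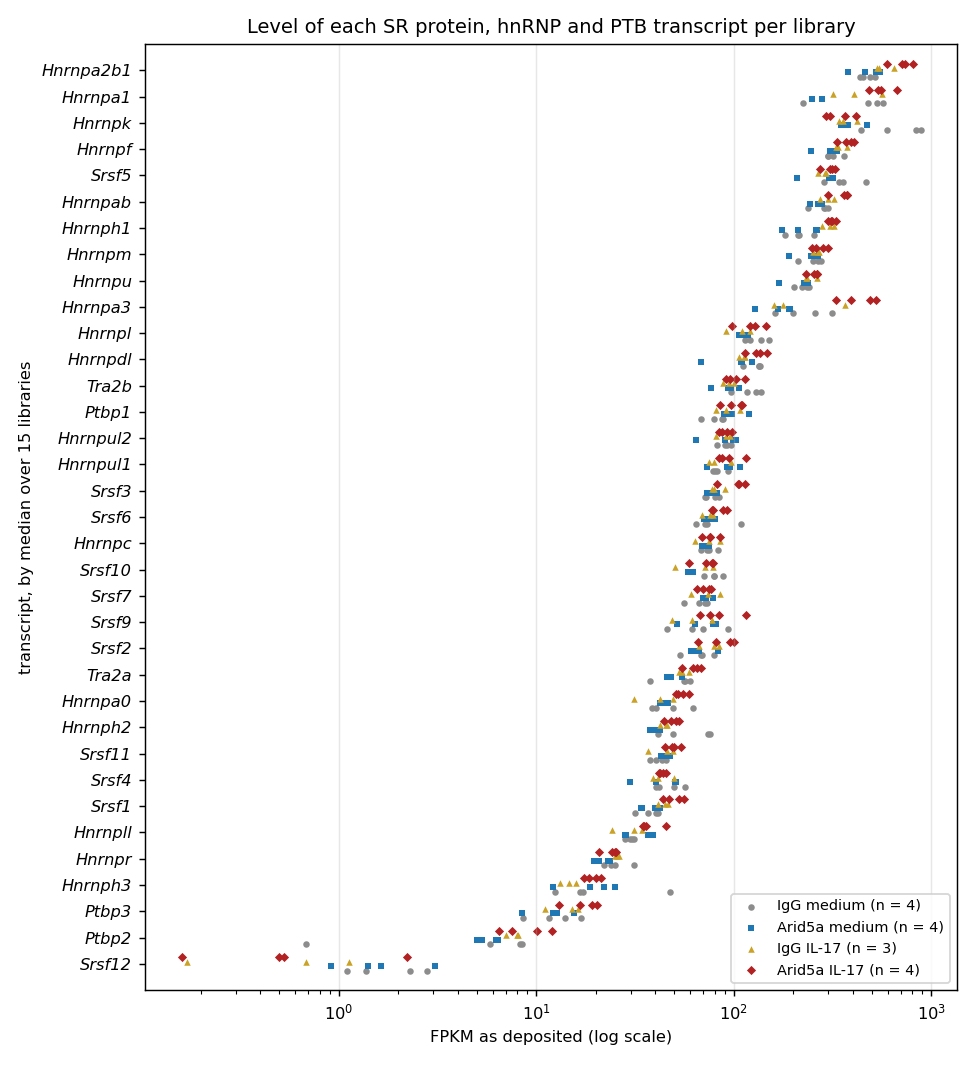
Deposited FPKM of each transcript (log scale) in each of the 15 libraries, ordered by median, with a marker for each group. The hnRNPs fill most of the top, Srsf1 sits at 41.3 FPKM, and Ptbp3, Ptbp2 and Srsf12 lie at the bottom with medians of 14.0, 7.05 and 1.13 FPKM.

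The first comparison asked which transcripts came down with Arid5a beyond the IgG background in resting cells. None of the 35 was higher in the Arid5a RIP, and Hnrnpk and Hnrnph2 were lower. Among all genes tested 0.0561% were called higher and 0.572% lower, and among well-expressed genes (average log2 CPM of at least 5, 5394 genes) 0.0742% and 1.85% (edgeR's quasi-likelihood test, Benjamini-Hochberg adjusted p below 0.05, the rule for every call here). Log2 folds were below 0 for 33 of the 35, with a median of -0.25, beside 0.04 over all genes tested and -0.19 over well-expressed genes, where 53.3% and 22.7% of folds were above 0. When the TMM factors were taken from the well-expressed genes alone, the median of the 35 was -0.07, 11 of 35 folds were above 0 and 0 were called, with 8 at an unadjusted p below 0.05. With these factors 2574 of the 5394 well-expressed genes had a fold above 0 and 820 had such a p. Of all genes 0 were called.

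Hnrnpk, a KH-domain protein that binds C-rich RNA, had 1163, 2337, 2322 and 1475 CPM in IgG medium libraries 1 to 4. It had 1173, 805, 863 and 913 CPM in Arid5a medium libraries 1 to 4. Libraries 2 and 3 of the IgG RIP were high, and the groups overlapped through library 1 of each antibody. The log2 fold of Arid5a over IgG was -0.96 ± 0.17 (SE; edgeR adjusted p = 0.0171), and it was -0.50 with an adjusted p of 0.58 without IgG medium libraries 2 and 3.

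Hnrnph2, which like Hnrnph1 and Hnrnpf binds G-rich tracts, had 113, 176, 183 and 89.3 CPM in the IgG medium libraries. In the Arid5a medium libraries it had 90.6, 73.9, 76.5 and 83.1 CPM. IgG libraries 2 and 3 were again the high ones. Its log2 fold was -0.77 ± 0.18 (edgeR adjusted p = 0.0362), and -0.34 (adjusted p = 0.697) without those 2 libraries.

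With these, 10 transcripts had an unadjusted p below 0.05, as did 12.8% of all genes and 1285 of the 5394 well-expressed genes. Hnrnpa1 had a log2 fold of -0.74 ± 0.19 (edgeR adjusted p = 0.0628) and Tra2b, a splicing activator that binds GAA-rich exons, with -0.54 ± 0.14 (edgeR adjusted p = 0.0657). Tra2b had 335, 417, 520 and 428 CPM in IgG medium and 349, 228, 290 and 304 CPM in Arid5a medium. Srsf10, an SR protein that represses splicing when dephosphorylated, was the single transcript whose groups did not overlap, with 199 to 246 CPM in IgG and 147 to 165 CPM in Arid5a. Of all genes 4.05%, and of well-expressed genes 11.2%, were lower without overlap. The edgeR adjusted p of Srsf10 was 0.0743.

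The count of 2 depended on single libraries. It was 6 without IgG medium 1, 3 without Arid5a IL-17 4, 1 without Arid5a medium 1, IgG IL-17 2 or Arid5a IL-17 1, 2 or 3, and 0 without IgG medium 2 or 3 or Arid5a medium 2, 3 or 4. CPM on receptor genes was higher in the Arid5a medium libraries (3225 to 4764) than in the IgG medium libraries (1981 to 3078), and with it as a covariate 0 of the 35 were called. Since these ranges do not overlap, that fit cannot tell the antibody and this measure apart.

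With IL-17 most folds lay on the other side of 0. In this comparison 34 of 35 log2 folds of Arid5a over IgG were above 0, with a median of 0.26 beside -0.01 over all genes tested and 0.15 over well-expressed genes, of which 49.2% and 75.7% were above 0. With factors from well-expressed genes the median was 0.10 and 26 of 35 folds were above 0, beside -0.01 and 2632 of the 5394 well-expressed genes. None of the 35 was called by edgeR, against 0.0561% of all genes called higher and 0.0112% lower. At an unadjusted p below 0.05 there were 7, beside 8.95% of all genes and 759 of the 5394 well-expressed genes. With factors from well-expressed genes there was 1, beside 505 of the 5394. DESeq2 called Hnrnpa3, and limma voom with quality weights called Hnrnpa2b1, Hnrnpa3, Hnrnpab and Srsf3. Without IgG IL-17 3 or Arid5a IL-17 4 edgeR called Hnrnpa3.

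The folds of the A/B hnRNPs were among the larger ones. Hnrnpa3 had a log2 fold of 0.94 ± 0.23 (edgeR adjusted p = 0.183), Hnrnpa0 0.49 ± 0.18 (adjusted p = 0.4) and Hnrnpa2b1 0.38 ± 0.15 (adjusted p = 0.436). Srsf3, the shortest of the classical SR proteins, had 0.39 ± 0.16 (edgeR adjusted p = 0.452), and Srsf1 had 0.28 ± 0.15 (adjusted p = 0.606). For Hnrnpk the fold was -0.04 ± 0.19, with a 95% interval from -0.40 to 0.32.

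Arid5a and IgG did not overlap for 6 transcripts, all higher in Arid5a, beside 5.3% of all genes and 11.2% of well-expressed genes higher, and 4.39% and 1.37% lower. These were Hnrnpa0, Hnrnpdl, Hnrnph3, Hnrnpll, Hnrnpm and Srsf5. Hnrnpa0, a single-exon relative of Hnrnpa1, illustrates the size: it had 102, 117 and 81.8 CPM in IgG IL-17 libraries 2 to 4 and 139, 159, 146 and 122 CPM in Arid5a IL-17 libraries 1 to 4. Library 4 of Arid5a IL-17 was its lowest and only just above the highest IgG value.

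**Figure D3:**
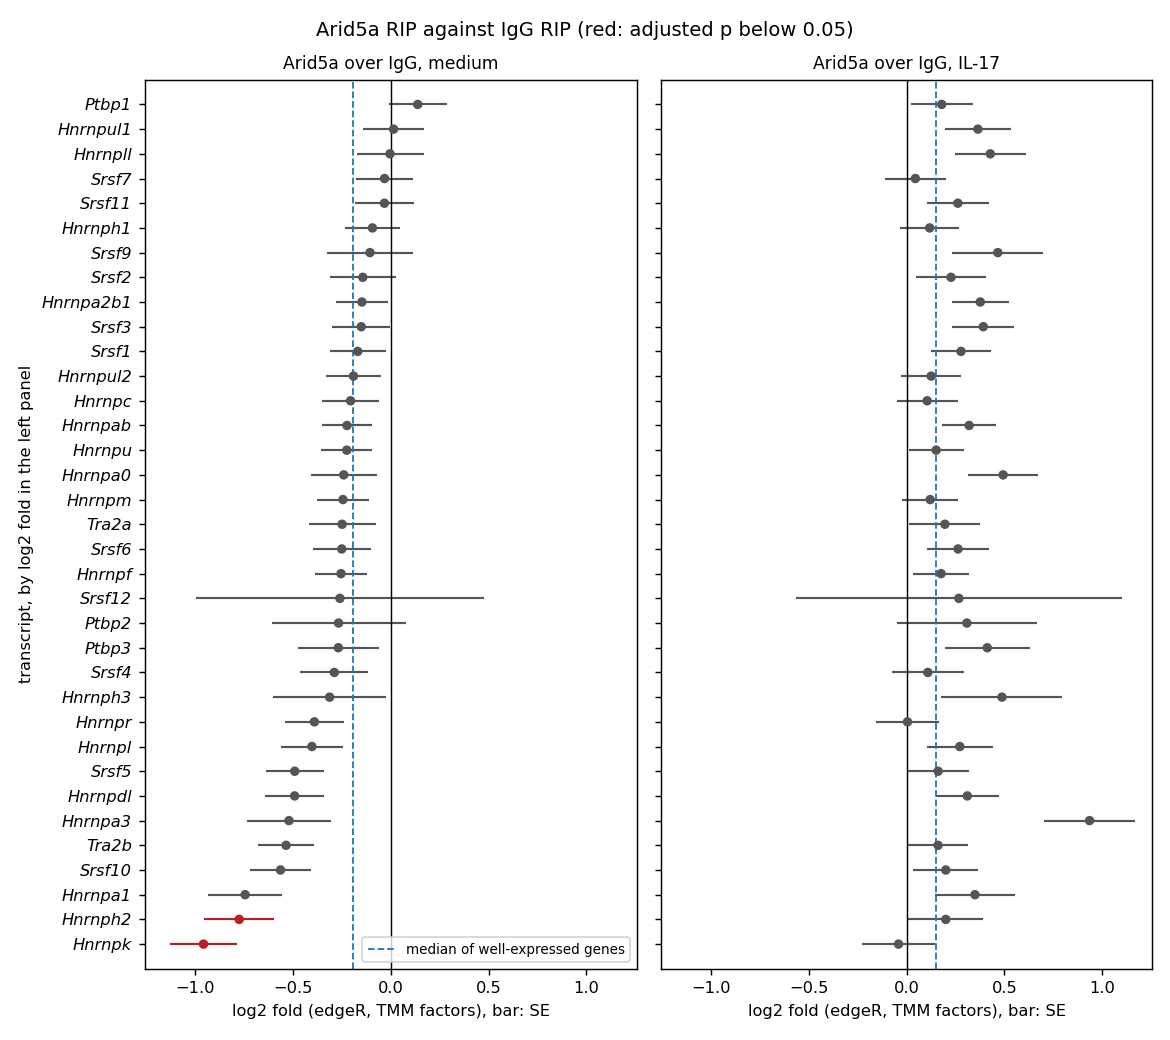
Log2 fold of Arid5a over IgG in medium (left) and with IL-17 (right) for each transcript, ordered by the left panel; bars are standard errors of the edgeR fit, red points were called at an adjusted p below 0.05, and the dashed line is the median of well-expressed genes. Folds lie mostly left of 0 in medium (33 of 35), with Hnrnpk and Hnrnph2 called, and mostly right of 0 with IL-17 (34 of 35), with 0 called.

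The difference between these contrasts was tested as an interaction, which uses all 4 groups. Hnrnpa3 was called higher and no transcript lower, beside 0.869% and 0.107% of all genes and 2.82% and 0.0556% of well-expressed genes. Before adjustment 17 had a p below 0.05, as had 16.3% of all genes and 1528 of the 5394 well-expressed genes. With factors from well-expressed genes 6 had, beside 728 of the 5394. The log2 interaction of Hnrnpa3 was 1.46 ± 0.32 (edgeR adjusted p = 0.0319), and it was 1.11 with an adjusted p of 0.18 under factors from well-expressed genes. All 35 interaction values were above 0 with TMM factors from all genes, with a median of 0.52 beside -0.05 over all genes and 0.34 over well-expressed genes (47.6% and 83.4% above 0), and 29 of 35 were with factors from well-expressed genes, where the median was 0.18 and 0 were called. Under the latter factors 2727 of the 5394 well-expressed genes were above 0, and 0 of all genes were called.

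Next after Hnrnpa3 came Hnrnpa1 (1.09 ± 0.28, edgeR adjusted p = 0.0509), Hnrnph2 (0.98 ± 0.26, adjusted p = 0.0576), Hnrnpdl (0.80 ± 0.22, adjusted p = 0.0635) and Hnrnpk (0.92 ± 0.25, adjusted p = 0.0711). In these 4 the value joined a fold below 0 in medium with one near or above 0 after IL-17. Hnrnph2 had 100, 96.3 and 102 CPM in IgG IL-17 libraries 2 to 4 and 108, 122, 125 and 102 CPM in Arid5a IL-17. Hnrnpdl had 294, 361, 386 and 330 CPM in IgG medium, 269, 155, 249 and 300 CPM in Arid5a medium, 280, 281 and 297 CPM in IgG IL-17, and 368, 316, 373 and 362 CPM in Arid5a IL-17. For Hnrnpdl, Arid5a and IgG thus overlapped in medium and did not with IL-17. Srsf1 had an interaction of 0.45 ± 0.21 (edgeR adjusted p = 0.276).

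The count of 1 in the interaction was 9 without Arid5a IL-17 4, 7 without IgG medium 1, 3 without IgG medium 4 and 2 without IgG IL-17 3. It was 0 without IgG medium 2 or 3, Arid5a medium 2 or 3, IgG IL-17 2 or 4, or Arid5a IL-17 1 or 2. With the receptor-gene CPM or the implied length as a covariate it was 0.

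Most calls were made within the Arid5a RIP. With IL-17 against medium 11 of the 35 rose and 0 fell, beside 4.84% of all genes and 15.4% of well-expressed genes called higher and 0.813% of all genes called lower. The 11 were 8 hnRNPs (Hnrnpa1, Hnrnpa2b1, Hnrnpa3, Hnrnpab, Hnrnpdl, Hnrnpf, Hnrnph1 and Hnrnpu), the SR proteins Srsf1 and Srsf3, and Ptbp3. Log2 folds were above 0 for 34 of 35, with a median of 0.43 beside -0.12 over all genes and 0.30 over well-expressed genes (43.9% and 85% above 0). An unadjusted p below 0.05 was found for 24 of the 35, 22.3% of all genes and 2213 of the 5394 well-expressed genes. Taking the factors from well-expressed genes lowered the median over all genes to -0.41, that over well-expressed genes to -0.01 and that of the 35 to 0.11, with 24 of 35 folds above 0 and 3 called higher (0.645% of all genes higher, 1.16% lower). Of the 5394 well-expressed genes 2637 then had a fold above 0, 111 were called higher and 84 lower. The 3 called of the 35, Hnrnpa1, Hnrnpa2b1 and Hnrnpa3, were called under each of 5 settings. These were edgeR with TMM, TMM from well-expressed genes, upper quartile or library totals, and DESeq2 with its own size factors and test. Limma on log2 FPKM called fewer (below).

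Hnrnpa3, an A/B hnRNP, had 426, 347, 463 and 502 CPM in Arid5a medium libraries 1 to 4. With IL-17 it had 1376, 1495, 1102 and 825 CPM in Arid5a libraries 1 to 4. Every IL-17 value lay above every medium value, and library 4 was the lowest of the 4. The log2 fold was 1.46 ± 0.22 (edgeR adjusted p = 0.000311), a 2.76-fold rise, and 1.14 ± 0.22 (adjusted p = 0.0193) with factors from well-expressed genes.

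Hnrnpa1, the most studied splicing repressor of the family, had 383, 400, 418 and 439 CPM in Arid5a medium. In Arid5a IL-17 it had 835, 1056, 902 and 678 CPM, so the groups did not overlap. The log2 fold was 1.08 ± 0.19 (edgeR adjusted p = 0.000868), a 2.12-fold rise, and 0.77 ± 0.18 (adjusted p = 0.0359) with factors from well-expressed genes.

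Hnrnpa2b1, which also carries RNA granules and reads N6-methyladenosine, had 908, 679, 947 and 1066 CPM in Arid5a medium. It had 1591, 1758, 1608 and 1159 CPM in Arid5a IL-17. The groups did not overlap, though library 4 with IL-17 came close to library 4 in medium. The log2 fold was 0.76 ± 0.13 (edgeR adjusted p = 0.000435), a 1.70-fold rise, and 0.45 ± 0.11 (adjusted p = 0.026) with factors from well-expressed genes.

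Together these 3 made up 17.9 ± 1.19% (SD, n = 4) of the counts of the 35 in Arid5a medium and 25.4 ± 2.39% (n = 4) in Arid5a IL-17. In the IgG RIP they made up 18.4 ± 1.34% (n = 4) in medium and 21.2 ± 3.68% (n = 3) with IL-17. This share does not depend on the scaling between libraries. The Arid5a IL-17 libraries, at 22.7% to 28.5%, lay above each Arid5a medium library (16.4% to 18.8%), while IgG IL-17 library 3 reached 25.4%.

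**Figure D4:**
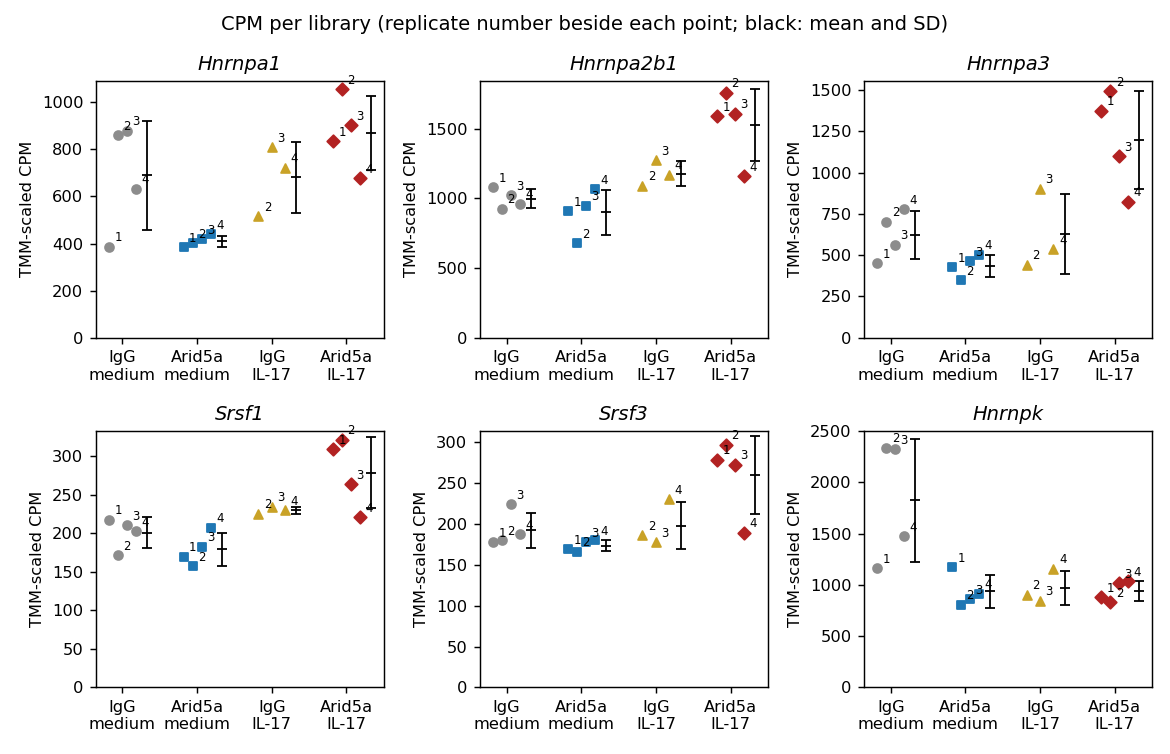
TMM-scaled CPM of 6 transcripts in each library, with the replicate number beside each point and the mean and SD of each group in black. Hnrnpa1, Hnrnpa2b1 and Hnrnpa3 are higher in each Arid5a IL-17 library than in each Arid5a medium library, library 4 is the lowest of the Arid5a IL-17 group in all panels but that of Hnrnpk, and Hnrnpk is high in IgG medium libraries 2 and 3 (2337 and 2322 CPM).

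The 2 SR proteins that rose did so by smaller amounts. Srsf1 had 170, 157, 182 and 207 CPM in Arid5a medium and 309, 321, 264 and 221 CPM in Arid5a IL-17. Its groups did not overlap, and its log2 fold was 0.64 ± 0.14 (edgeR adjusted p = 0.0049), a 1.56-fold rise. Per length, it stood at 37.5 ± 4.18 FPKM (SD, n = 4) in medium and 49.9 ± 5.45 FPKM (n = 4) with IL-17. With factors from well-expressed genes the fold was 0.32 ± 0.11 and the call was lost (adjusted p = 0.124). Srsf3, which regulates splicing and 3′ end processing, had 169, 166, 178 and 180 CPM in medium and 278, 297, 272 and 189 CPM with IL-17, a log2 fold of 0.58 ± 0.15 (edgeR adjusted p = 0.0137). The other 9 SR proteins had folds between -0.92 (Srsf12) and 0.52 (Srsf2) without a call, Srsf5 among them with 401, 250, 357 and 404 CPM in medium and 441, 384, 443 and 413 CPM with IL-17.

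The remaining hnRNPs that rose were Hnrnph1, Hnrnpab, Hnrnpdl, Hnrnpf and Hnrnpu. Hnrnph1, a binder of G-rich tracts, had 410, 315, 462 and 507 CPM in medium and 696, 646, 711 and 592 CPM with IL-17, with a log2 fold of 0.64 ± 0.14 (edgeR adjusted p = 0.00382). Hnrnpab, a relative of the A/B group, had 578, 484, 556 and 595 CPM in medium and 922, 900, 866 and 642 CPM with IL-17, with a log2 fold of 0.59 ± 0.13 (edgeR adjusted p = 0.00413). Neither overlapped between the groups, and library 4 was again the lowest with IL-17.

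Hnrnpdl, which controls its own splicing and whose values are given above, had a log2 fold of 0.54 ± 0.15 (edgeR adjusted p = 0.0259). Hnrnpf had 597, 439, 592 and 600 CPM in medium and 886, 849, 793 and 638 CPM with IL-17 (0.51 ± 0.13, edgeR adjusted p = 0.018). Hnrnpu, a nuclear scaffold protein, had 1126, 736, 986 and 1085 CPM in medium and 1390, 1422, 1386 and 1094 CPM with IL-17 (0.43 ± 0.13, edgeR adjusted p = 0.0437). Hnrnpu alone of the 3 overlapped between the groups, through library 4 with IL-17 and library 1 in medium.

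Of the PTB transcripts Ptbp3 rose, with 54.1, 90.9, 74.4 and 75.9 CPM in medium and 143, 150, 121 and 83.5 CPM with IL-17 (log2 fold 0.76 ± 0.20, edgeR adjusted p = 0.0213). Its groups overlapped through library 4 with IL-17. Ptbp2 had 15.3, 14.9, 17.5 and 19.2 CPM in medium and 42.1, 25.98, 22.0 and 30.3 CPM with IL-17, which did not overlap but, at low counts, gave 0.84 ± 0.33 without a call (edgeR adjusted p = 0.13). Ptbp1, the form of most cells outside the nervous system, had 264, 299, 246 and 242 CPM in medium and 304, 340, 331 and 232 CPM with IL-17 (0.20 ± 0.15, edgeR adjusted p = 0.416). The 95% interval of the Ptbp1 fold ran from -0.09 to 0.49, so a small change is not resolved.

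Hnrnpk was not called. It had 1173, 805, 863 and 913 CPM in Arid5a medium and 883, 832, 1018 and 1035 CPM in Arid5a IL-17, a log2 fold of 0.01 ± 0.17 with a 95% interval from -0.33 to 0.34. Its share of the counts of the 35 was 5.50% to 8.82% with IL-17 and 8.56% to 11.2% in medium.

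The groups did not overlap for 15 of the 35, all higher with IL-17, beside 10.7% of all genes and 29% of well-expressed genes higher, and 9.25% and 1.43% lower. These 15 held 9 of the 11 called transcripts, all but Hnrnpu and Ptbp3, and also Hnrnpa0, Hnrnph2, Hnrnpm, Ptbp2, Srsf6 and Tra2a. Hnrnpa0 had 106, 102, 100.6 and 98.4 CPM in medium and 139, 159, 146 and 122 CPM with IL-17, with a log2 fold of 0.48 ± 0.16 (edgeR adjusted p = 0.0793).

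Library 4 of Arid5a IL-17 was the lowest of its group for 28 of the 35, and for 72.5% of well-expressed genes. Without it 18 of the 35 were called. Without library 1, 2 or 3 of that group 6 were called each time, namely Hnrnpa1, Hnrnpa2b1, Hnrnpa3, Hnrnpab, Hnrnph1 and Srsf1. Without IgG medium 2, which is in neither group compared but enters the filter, the scaling and the shared spread, 18 were called. The share of all genes called in these fits is not set beside the counts. They do not show whether the transcripts stood out from other genes. With library 4 as the sole Arid5a IL-17 library 0 were called, the lone library being assumed to vary like the others, and the log2 folds were 0.92 for Hnrnpa3, 0.72 for Hnrnpa1, 0.36 for Hnrnpa2b1 and 0.29 for Srsf1.

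With the receptor-gene CPM as a covariate 0 of the 35 were called and the folds were 1.302 for Hnrnpa3, 0.80 for Hnrnpa1 and 0.50 for Hnrnpa2b1. With the implied length as a covariate 0 were called and they were 0.32, 0.40 and 0.41. The part of either measure in the rise was not tested beyond these fits.

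For 7 of the 35, estimated counts were not whole in over 10 libraries. These were Hnrnpa1 and Srsf4 (15 libraries each), Hnrnpa3 (14), Hnrnpu (13), and Hnrnph3, Hnrnpk and Ptbp1 (12 each). Counts that are not whole arise when reads match more than 1 place, and Hnrnpa1 and Hnrnpa3 are known for many retroposed copies. Whole counts in all libraries were found for 27 of the 35, Hnrnpa2b1, Srsf1 and Srsf3 among them. The values of the 7 with counts that were not whole are therefore less certain than those of Hnrnpa2b1.

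After removal of the offset of each library, the length implied for Hnrnpa1 was 1595, 1597, 1690 and 1660 nt in Arid5a medium and 1450, 1497, 1535 and 1482 nt in Arid5a IL-17. In IgG medium libraries 1 to 4 it was 1690, 1441, 1509 and 1393 nt, and in IgG IL-17 libraries 2 to 4 it was 1650, 1525 and 1673 nt. With IL-17 the value was thus shorter without overlap in the Arid5a RIP, while in the IgG RIP its mean was longer (1508 nt in medium, 1616 nt with IL-17) and the groups overlapped. For Hnrnpa3 the length was 2809 ± 179 nt (SD, n = 4) in Arid5a medium and 2607 ± 27.5 nt (n = 4) in Arid5a IL-17, against 2621 ± 94.8 nt (n = 4) in IgG medium and 2764 ± 162 nt (n = 3) in IgG IL-17. Its range over the libraries was 19.1% of its median, that of Hnrnpa1 19.3% and that of Hnrnpul1 60.9% (1458 to 2835 nt), beside a median of 0.186% over 6076 genes. An implied length is a mean over a gene's transcript forms weighted by their estimated shares, and the part of such shares in the rise of Hnrnpa1 and Hnrnpa3 was not tested.

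In the IgG RIP, IL-17 against medium gave a background against which to set these changes. Of the 35, 0 rose and Hnrnpk fell, beside 0.258% of all genes called higher and 0.235% lower. The median log2 fold was -0.01 beside 0.00 over all genes and -0.04 over well-expressed genes, with 16 of 35 above 0. Under other factors the median was 0.01 (well-expressed genes) and 0.03 (upper quartile or library totals), and a DESeq2 fit gave -0.01, so its sign differed between settings. Of the core A/B hnRNPs, Hnrnpa3 alone was called in the interaction above, and Hnrnpa1 and Hnrnpa2b1 were not. In the IgG RIP their folds were 0.01 ± 0.23 (Hnrnpa3), -0.01 ± 0.20 (Hnrnpa1) and 0.24 ± 0.14 (Hnrnpa2b1).

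Those folds rest on spread-out values. Hnrnpa3 had 453, 702, 564 and 779 CPM in IgG medium libraries 1 to 4 and 443, 903 and 537 CPM in IgG IL-17 libraries 2 to 4. For Hnrnpa1 the values were 386, 859, 879 and 633 CPM in medium and 515, 808 and 723 CPM with IL-17. In both, the lowest IgG library lay within the range of Arid5a medium and the highest within that of Arid5a IL-17. The high IgG IL-17 library 3 also had the lowest implied length of the IgG libraries (-40.8 nt). Hnrnpa2b1 had 1079, 925, 1022 and 961 CPM in medium and 1090, 1274 and 1169 CPM with IL-17, which did not overlap.

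Hnrnpk fell from 1163, 2337, 2322 and 1475 CPM in IgG medium to 906, 844 and 1159 CPM in IgG IL-17 libraries 2 to 4. The groups did not overlap, but only just, since IgG medium 1 and IgG IL-17 4 were 1163 and 1159 CPM. The log2 fold was -0.91 ± 0.19 (edgeR adjusted p = 0.0191), -0.88 ± 0.21 (adjusted p = 0.0723) with factors from well-expressed genes, and -0.41 (adjusted p = 0.51) without IgG medium 2 and 3. The call was lost without IgG medium 3 (-0.77, adjusted p = 0.0757), IgG IL-17 2 (-0.86, adjusted p = 0.0856) or IgG IL-17 3 (-0.79, adjusted p = 0.135), and with the receptor-gene CPM as a covariate (-0.84, adjusted p = 0.122). The difference of Hnrnpk in this comparison and that between the antibodies in medium share the IgG medium libraries. Hnrnpk counts were not whole in 12 libraries, and its gene overlaps Rmi1 and Mir7-1 in the annotation. In all, 11 of the 35 genes overlap another gene model, and the strand setting of the counting is not given in the sources used here.

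No other transcript was called in the IgG RIP. The fold farthest from 0 was that of Srsf12, at -1.45 ± 0.85 (edgeR adjusted p = 0.55), a transcript of low counts with 6.40, 7.86, 3.25 and 3.52 CPM in medium and 3.00, 1.75 and 0.48 CPM with IL-17. Hnrnph1 had 526, 392, 480 and 406 CPM in medium and 551, 617 and 660 CPM with IL-17, without overlap, and a log2 fold of 0.43 ± 0.15 (edgeR adjusted p = 0.215). Srsf5 had 392, 654, 497 and 453 CPM in medium and 380, 369 and 377 CPM with IL-17, without overlap, and -0.40 ± 0.16 (adjusted p = 0.315). Tra2b had 292, 308 and 361 CPM with IL-17 and a fold of -0.41 ± 0.15 (edgeR adjusted p = 0.273), and Srsf1, with 218, 172, 210 and 203 CPM in medium and 225, 234 and 230 CPM with IL-17, had 0.19 ± 0.15 (adjusted p = 0.701). Srsf3 had 178, 180, 224 and 187 CPM in medium and 186, 177 and 230 CPM with IL-17. Ptbp1 had 254, 203, 276 and 218 CPM in medium and 252, 222 and 326 CPM with IL-17. Ptbp2 had 27.1, 2.25, 20.2 and 25.3 CPM in medium, the low value in the shallowest library, and 24.8, 21.4 and 26.8 CPM with IL-17. Groups did not overlap for 3 transcripts higher (Hnrnpa2b1, Hnrnph1 and Srsf1) and 3 lower (Hnrnpk, Srsf5 and Srsf12). The shares were 4.27% and 3.32% of all genes, and 4.91% and 6.38% of well-expressed genes.

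**Figure D5:**
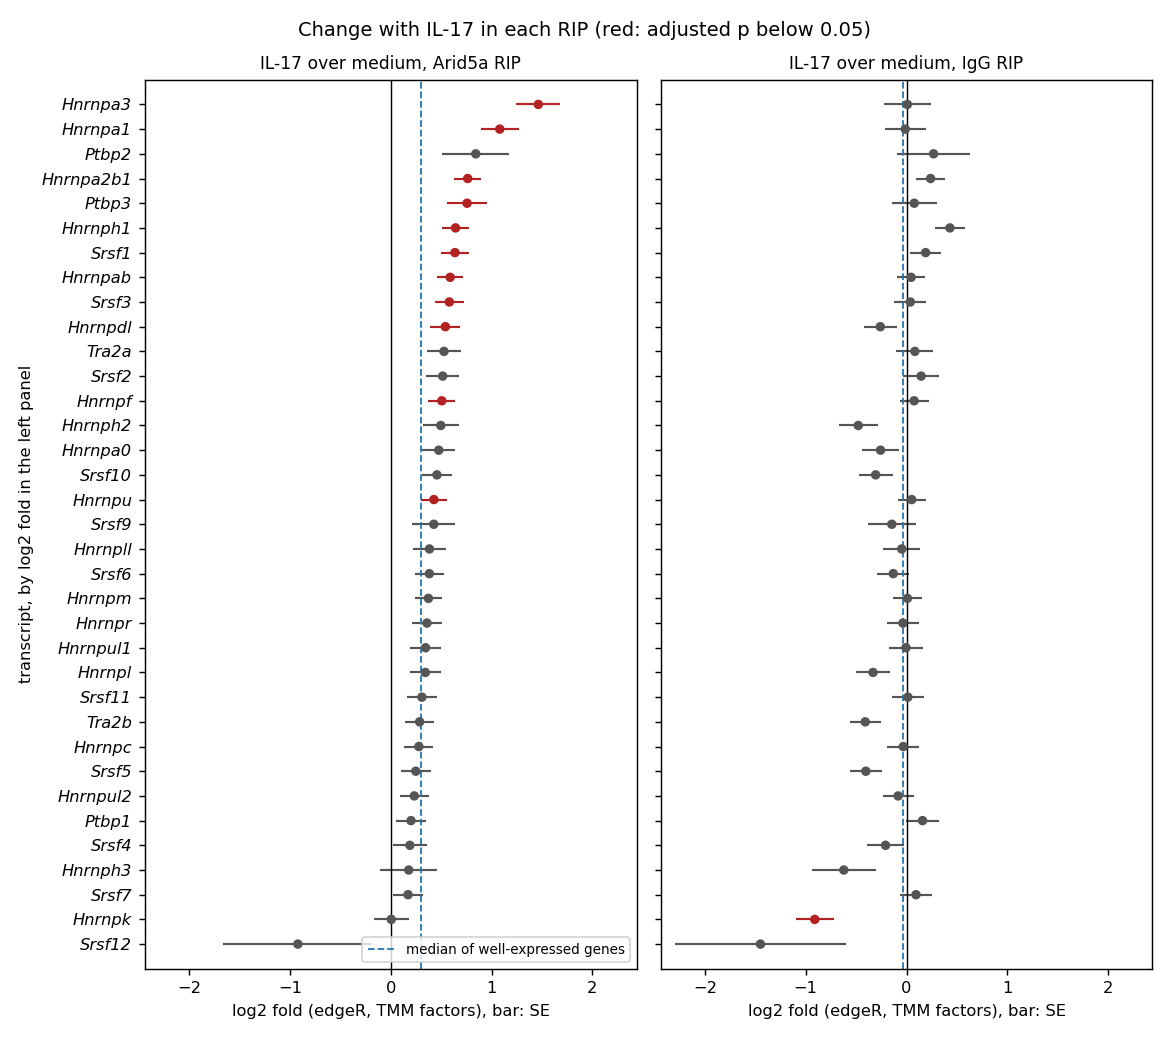
Log2 fold of IL-17 over medium in the Arid5a RIP (left) and the IgG RIP (right) for each transcript, ordered by the left panel; bars are standard errors of the edgeR fit, red points were called at an adjusted p below 0.05, and the dashed line is the median of well-expressed genes. Of the 35, 11 are called higher on the left, led by Hnrnpa3 at 1.46, and Hnrnpk alone is called, lower, on the right (-0.91).

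Other genes of the splicing machinery were followed through 3 lists, to be read beside 4.84% of all genes and 15.4% of well-expressed genes called higher and a median log2 fold of 0.30 over well-expressed genes. In the Arid5a RIP with IL-17 against medium, 4 of 42 core spliceosome genes rose (Sf3b1, Ddx46, Snrpd1 and Snrpa1) and 0 fell, with a median log2 fold of 0.25. These 4 were named after their values were seen. Of 26 SR-related factors and SR protein kinases, which cooperate with or phosphorylate SR proteins, 7 rose and 0 fell, with a median of 0.43. Of 38 other splicing regulators 9 rose and 0 fell, with a median of 0.35. The smallest p-values over the lists were those of Syncrip, a relative of Hnrnpr (0.68 ± 0.13, edgeR adjusted p = 0.00158), Rbm39 (0.74 ± 0.15, edgeR adjusted p = 0.00238) and Qk (0.65 ± 0.14, edgeR adjusted p = 0.00342). With factors from well-expressed genes 0 genes of these 3 lists were called in that comparison, and the medians were -0.06, 0.12 and 0.04.

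Elsewhere few of these genes passed the test. In medium, Eftud2 (-0.70) and Dhx15 (-0.68) of the core spliceosome and the regulator Celf1 (-0.62) were lower with Arid5a. In the interaction Dhx15 (0.98) and Qk (0.84) were higher. With factors from well-expressed genes none of these 5 calls held (edgeR adjusted p from 0.176 to 0.229). Between the antibodies with IL-17 edgeR called 0 genes of the 3 lists. At an unadjusted p below 0.05 were 2 of 42, 1 of 26 and 10 of 38, beside 8.95% of all genes and 759 of the 5394 well-expressed genes. In the IgG RIP it also called 0, with 6 of 42, 2 of 26 and 3 of 38 at that p. So were 11.1% of all genes and 1013 of the 5394 well-expressed genes.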

How the data were processed

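ST2 RIP libraries were sequenced with a stranded SMART-Seq kit, and the build was mm10, per the labels. R 4.3.0 with DESeq2 1.36.0, and RSEM 1.3.1 with the aligner STAR 2.7.9, are listed in the submitters' processing notes. Annotation and strand setting are not given in the sources used here. The authors deposited expected counts per gene, per the file headers, not normalized. These were rounded to whole numbers for testing. The authors also deposited FPKM values, scaled per length and library, which were used for levels between genes.

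Counts were filtered with filterByExpr, scaled with TMM and fitted in R 4.3.3 with edgeR 4.0.16 as 4 group means over 15 libraries, with the robust quasi-likelihood test and Benjamini-Hochberg adjustment over 17835 genes. Calls are at an adjusted p below 0.05. Depth ran from 939139 to 5713913 counts, and intervals cover 95%. The code was tested on simulated data. Values by library are given for transcripts called in any comparison, the 4 with the smallest p in each, and Srsf1, Srsf3, Tra2b, Hnrnpa1, Hnrnpa2b1, Hnrnpk, Ptbp1 and Ptbp2. For some of these they cover only part of the groups. Hnrnpab, Hnrnpf, Hnrnpu and Ptbp3 are given in the Arid5a libraries alone, Hnrnpa0 without IgG medium, and Tra2b without Arid5a IL-17. Of the other splicing genes at most 4 called per comparison were named by smallest p. The members and lists were chosen with earlier results of these data known.

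Deviations of same-numbered libraries from their group means were at most weakly correlated (-0.126 to 0.195). Only replicate 2 of Arid5a medium and of Arid5a IL-17, at 0.195, were each other's closest match between their groups. Replicate numbers were therefore not treated as pairs in the main fit. Alternatives covered factors from well-expressed genes, upper quartile, library totals, DESeq2 1.42.0, limma 3.58.1 (voom, and log2 of FPKM plus 1 or 0.1), other filters, a block, and libraries left out. Leaving out Arid5a IL-17 1 to 3 or IgG medium 2 and 3 together, and both covariates, were chosen after seeing the data. Promoters came from RefSeq (GRCm38.p6).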

Additional observations from a re-analysis of the deposited data

Results flagged for a closer look

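Within groups of 4 libraries, 4 of 60 sets of values had a library far from the others, where chance gives about 1 in 20. Hnrnpf was 439 CPM in Arid5a medium 2, and 592 to 600 CPM in the other libraries of that group. Hnrnpu was 1094 CPM in Arid5a IL-17 4, and 1386 to 1422 CPM in the others. Receptor-gene counts were 3078 CPM in IgG medium 4 (others 1981 to 2157) and 4049 CPM in Arid5a IL-17 4 (others 1405 to 1801). For Hnrnpa3 the antibody contrast differed between IL-17 and medium, with an interaction of 1.46 on the log2 scale (edgeR adjusted p = 0.0319). This call was lost in 20 of 30 alternative fits, and 6 of the 15 fits that left out 1 library kept it.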

How the results depend on the processing

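Counts of called transcripts are given in the order medium, IL-17, interaction, Arid5a RIP and IgG RIP, where they were 2, 0, 1, 11 and 1. They were 0, 0, 0, 3 and 0 with factors from well-expressed genes, 0, 0, 0, 3 and 1 with upper-quartile factors or library totals, 5, 1, 2, 10 and 1 with DESeq2, and 4, 4, 12, 31 and 1 with limma voom. Without a filter they were 2, 0, 3, 12 and 1, and with a stricter one 2, 0, 1, 10 and 1. Fitting only the libraries compared gave 0, 0, 19 and 0 (no interaction fit). With the replicate block they were 1, 0, 1, 10 and 0, although for most libraries the numbers showed no pairing. With limma on log2 FPKM and either pseudocount they were 0, 0, 0, 1 and 0. Without IgG medium 2 and IgG IL-17 4 together they were 1, 0, 1, 19 and 1. Leaving out 1 library gave 0 to 6, 0 to 1, 0 to 9, 6 to 18 and 0 to 1. Of the alternatives chosen after seeing the data, leaving out Arid5a IL-17 1 to 3 gave 0 in each, leaving out IgG medium 2 and 3 gave 0, 0, 0, 21 and 0, the receptor-gene covariate 0 in each, and the length covariate 1, 0, 0, 0 and 1. Leaving out Arid5a IL-17 1 to 3 also turned the IL-17 antibody folds of Hnrnpa2b1 (-0.024) and Srsf3 (-0.062). The cause of these shifts was not tested. The counts above are given without the share of all genes called in the same fit. A high count, such as 31 with limma voom, therefore does not show whether these transcripts stood out from other genes. Over 863 refitted values of 28 single results, 663 kept their direction and side of the threshold, 172 lost a call, 26 gained one and 2 changed sign. Low counts limit Ptbp2 and Srsf12.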
